A study of Mus musculus with 8 samples.

Results

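The genes described here encode protein parts and regulators of the splicing machinery. They are the 47 mouse genes whose symbol begins with Snrp, Srsf, Hnrnp, Sf3a or Sf3b and that the array annotation pairs, alone, with at least 1 probe set. They are read by 139 of the 45101 probe sets, out of 18194 genes with a probe set of their own. By family there are 9 Snrp genes, 10 Srsf genes, 19 Hnrnp genes and 9 Sf3a or Sf3b genes. RNA came from the quadriceps muscle of adult male C57Bl/10 mice in 2 groups of 4 arrays. The hypoxia mice were in a sealed chamber for 2 weeks, with oxygen lowered from 21% to 8% during the first week and held at 8% for 7 more days, and the control mice stayed in room conditions for the same 2 weeks. The chamber is described for the hypoxia mice alone, so it cannot be told apart from low oxygen. Whether each array stands for its own mouse is not stated in the labels, so p-values measure only the spread between these samples, which may be technical.

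Splicing removes introns in the spliceosome, which is built from small nuclear ribonucleoproteins (snRNPs), each a small nuclear RNA with its proteins. The Sm proteins, most of the Snrp genes, close as a ring around that RNA, and the ring is put together in the cytoplasm from preformed subcomplexes, D1 with D2, D3 with B, and E with F and G. The SF3a and SF3b complexes belong to the U2 snRNP and hold it on the branch site of the intron. SR proteins, the Srsf genes, bind exons and mostly help their inclusion, while heterogeneous nuclear ribonucleoproteins (hnRNPs) coat nascent transcripts and often oppose it. Several SR and hnRNP genes limit their own level by splicing in an exon that sends their RNA to decay. In skeletal muscle, splicing sets the protein forms of titin, troponin T and many calcium-handling genes.

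The promoter windows are shown for 4 genes or gene units, chosen by the direction and size of their changes. They are Snrpn with Snurf, which fell, Snrpd3, the member with the largest fall, and the genes with the largest rise among the SF3 and the SR families. Each is 300 bases long, 250 before and 50 after an annotated transcript start, on the strand of the gene, taken from RefSeq on assembly GRCm38.p6. Capitals mark ACGTG, a form of the core of the hypoxia response element, or CGGAAG, a core that ETS factors bind, on either strand. GCGTG, the other form of the hypoxia response core, was not marked or counted. On either strand it is in the windows of Sf3b1, of Snrpd3 and of Snrpn and Snurf. The first window is shared by Snrpn and Snurf and lies at chr7:60005150-60005449 (minus strand), Snrpd3 lies at chr10:75517792-75518091 (plus strand), Sf3b1 at chr1:55027429-55027728 (minus strand) and Srsf5 at chr12:80945249-80945548 (plus strand).
Snrpn and Snurf: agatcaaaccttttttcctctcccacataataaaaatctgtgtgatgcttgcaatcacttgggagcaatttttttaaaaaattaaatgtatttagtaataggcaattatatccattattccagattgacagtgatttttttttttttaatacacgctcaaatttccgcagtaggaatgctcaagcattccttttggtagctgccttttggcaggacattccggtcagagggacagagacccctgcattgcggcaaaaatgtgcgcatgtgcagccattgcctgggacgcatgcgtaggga
Snrpd3: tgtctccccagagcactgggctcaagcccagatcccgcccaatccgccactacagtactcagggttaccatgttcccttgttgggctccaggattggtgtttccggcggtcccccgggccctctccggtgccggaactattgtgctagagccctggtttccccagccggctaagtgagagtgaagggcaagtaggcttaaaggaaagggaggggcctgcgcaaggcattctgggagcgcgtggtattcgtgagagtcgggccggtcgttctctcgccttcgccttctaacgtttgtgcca
Sf3b1: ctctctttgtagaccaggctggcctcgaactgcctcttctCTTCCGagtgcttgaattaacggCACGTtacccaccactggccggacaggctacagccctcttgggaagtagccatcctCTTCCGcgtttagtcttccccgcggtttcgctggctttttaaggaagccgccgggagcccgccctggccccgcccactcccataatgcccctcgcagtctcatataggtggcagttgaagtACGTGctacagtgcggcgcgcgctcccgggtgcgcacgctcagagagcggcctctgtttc
Srsf5: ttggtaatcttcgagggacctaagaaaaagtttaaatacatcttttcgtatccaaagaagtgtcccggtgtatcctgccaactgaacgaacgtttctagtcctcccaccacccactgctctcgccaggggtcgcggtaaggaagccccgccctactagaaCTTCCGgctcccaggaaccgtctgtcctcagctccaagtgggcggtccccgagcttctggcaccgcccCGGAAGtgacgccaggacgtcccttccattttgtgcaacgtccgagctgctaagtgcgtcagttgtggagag
The Sf3b1 window held ACGTG 2 times and CGGAAG 2 times, and the Srsf5 window held CGGAAG 2 times. The windows of Snrpd3 and of Snrpn and Snurf held neither ACGTG nor CGGAAG. Windows were given for 42 of the 47 members, 58 windows in all. ACGTG was in 18 of them (31.0%), against 19.6% of all 32851 windows in the table, and CGGAAG in 28 of them (48.3%), against 16.9% of all. The member windows also held more CG dinucleotides, a median of 25 against 7 over all windows, and both runs contain CG. The 2 runs do not share bases in the windows shown. A match is a run of letters and not a shown binding site.

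Measured as MAS5 signals, an Affymetrix value per probe set and array on a linear scale, the arrays had median signals of 127.6 to 151.4 in hypoxia muscle and 144.4 to 164.6 in control muscle. Across genes, arrays correlated more closely within hypoxia (r = 0.936 to 0.960) and within control (0.951 to 0.961) than between the groups (0.857 to 0.891). Hypoxia 1 stood apart in RNA quality. Its ratio of 3' to 5' signal for Gapdh, which rises when RNA is broken, was 3.44, against 0.801 to 0.874 on the other hypoxia arrays and 0.776 to 0.807 on the control arrays, and for beta-actin the ratios were 2.53, 1.40 to 1.59 and 1.09 to 1.25. The beta-actin ratio of every hypoxia array, not of hypoxia 1 alone, thus lay above every control array. This difference cannot be told apart from the groups, and its part in the changes below was not tested. Of 14 markers of mature muscle fibres, all were above the filter on dim probe sets and 11 fell, with a summed signal of 366399 to 506001 on hypoxia arrays and 622730.0 to 743828 on control arrays. Cycling-cell markers were mostly dim, with 6 of 13 above the filter and 1 of these, Pcna, higher, and a summed signal of 5939 to 6757 on hypoxia arrays and 4004 to 4797 on control arrays. Among the other marker lists, 1 of 13 tested macrophage genes rose and 2 fell, 3 of 6 neutrophil genes rose (summed signal 3328 to 6007 on hypoxia arrays and 591 to 1115.5 on control arrays), none of 3 lymphocyte genes was called, 9 of 10 fibroblast genes fell (summed signal 15071 to 20112 on hypoxia arrays and 55916 to 64081.5 on control arrays), 3 of 10 endothelial genes fell, and 1 of 6 satellite cell genes fell. RNA came from whole muscle, so fewer cells of a type and less RNA per cell cannot be told apart, and the part of these shifts in the results below was not tested.

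More splicing factor genes rose than fell after hypoxia. Of the 47 genes, 45 had a probe set above the filter (a signal of about 90.2), and 22 of these rose and 4 fell at an adjusted p of 0.05 in a limma fit over all genes. That is 48.9% higher and 8.9% lower, where 14.8% of all 13258 genes tested were higher and 18.8% lower. The median log2 change of the 45 was 0.48 and that of all genes was -0.04. In 20 members every hypoxia value lay above every control value, and in 3 every hypoxia value lay below, where 14.8% and 18.7% of all genes did so. The other 2 members, Srsf12 and the only probe set that Snrpn has to itself, were below the filter and were not tested. Signals are given per array, and a change is the log2 difference of hypoxia minus control in signal plus 16, read on the brightest probe set of each gene. Centring every array on its median raised the median change of all genes by 0.13 and gave 25 members higher and 3 lower. Averaging the probe sets of each gene, in place of the brightest, gave a members' median of 0.17. Over 20 alternatives, 17 to 25 members were called higher and 3 to 5 lower. With hypoxia 1 left out, 20 of the same 22 members were called higher, the same 4 and Srsf4 were called lower, and the members' median was 0.37.

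**Figure D1:**
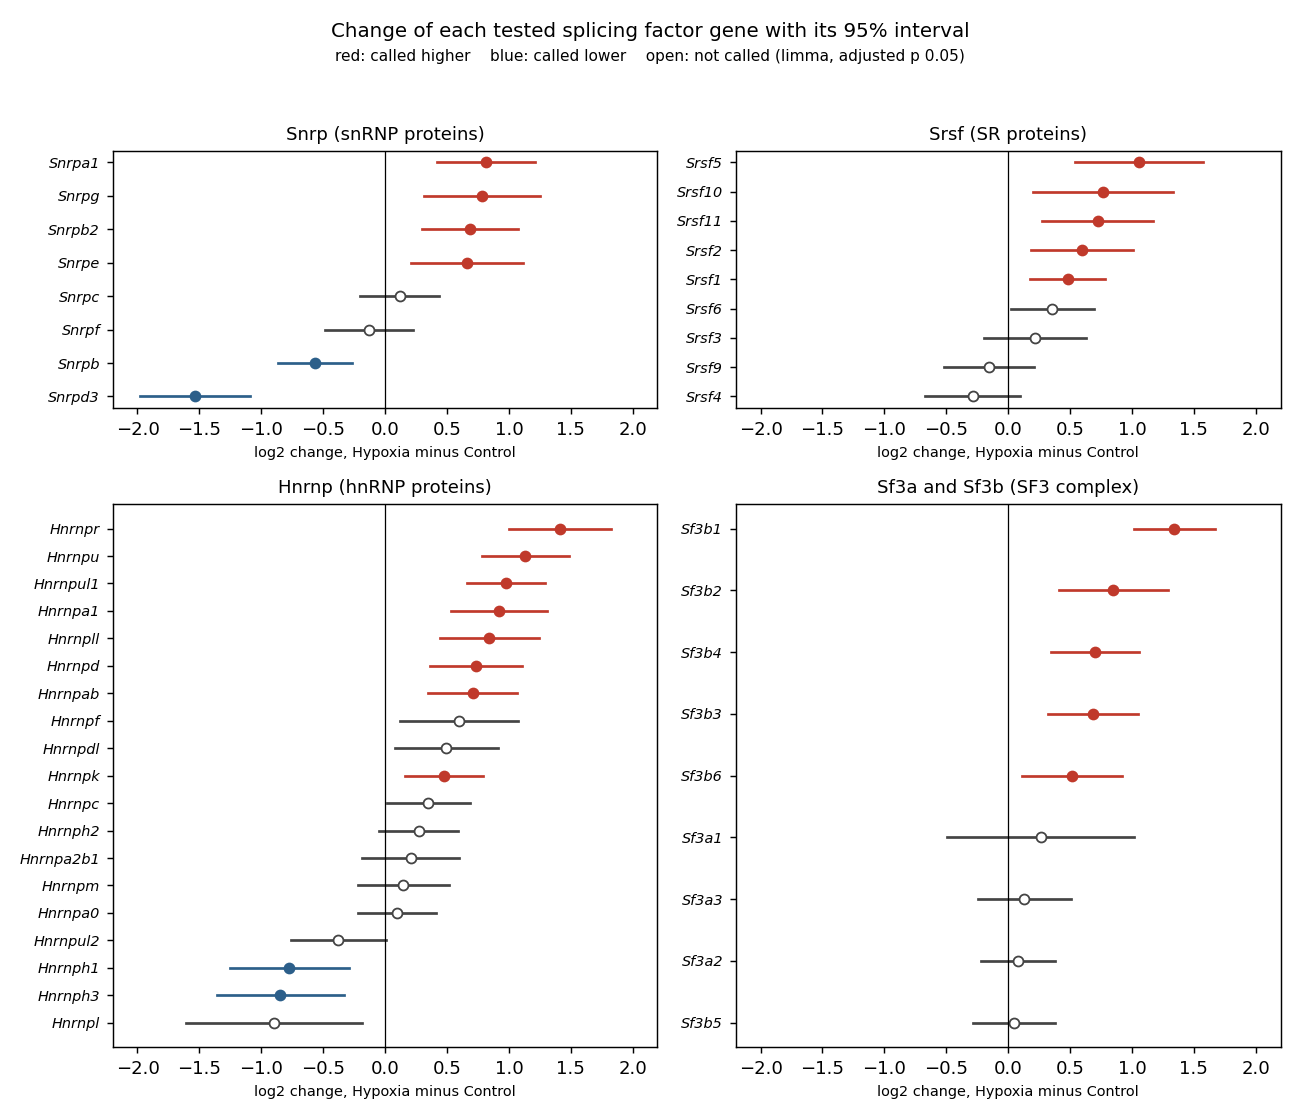
Log2 change of hypoxia minus control for the 45 tested members, by family, each point on the brightest probe set with a horizontal line for its 95% interval. Filled red points passed the test as higher (22 genes), filled blue points as lower (4 genes), and open points did not pass. SF3b genes cluster on the right except Sf3b5, and Snrpd3 lies farthest to the left.

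Of 8 tested Snrp genes 4 rose (50%) and 2 fell (25%), where 14.8% and 18.8% of all genes did, with a median of 0.39 and a range of -1.54 to 0.81. Among the 5 that encode subunits of the Sm ring, Snrpe and Snrpg rose, Snrpd3 and Snrpb fell and Snrpf was not called. Snrpd3, which encodes SmD3, had signals of 801, 916, 1627.5 and 974 on hypoxia arrays 1 to 4, against 3039, 2663, 2993 and 3532 on control arrays 1 to 4. Its hypoxia values all lay far below control, hypoxia 3 being the least low, and the mean fell 2.90-fold, a change of -1.54 ± 0.20 (SE, limma adjusted p = 9.75e-05). The fall was seen on 1 of 3 tested Snrpd3 probe sets, and the other two, at -0.14 and 0.02, were not called, the average of the 3 being -0.55 (adjusted p = 0.0445). Snrpb, which encodes SmB, the partner of SmD3, had signals of 4741, 4316.5, 3973 and 4024 on hypoxia arrays 1 to 4, against 5258, 6307.5, 6815 and 6980.3 on control arrays 1 to 4. The groups did not overlap and the change was -0.57 ± 0.14 (SE, limma adjusted p = 0.0068). A further Snrpb probe set fell more, 2.40-fold, with signals of 1549.7, 1733, 2882 and 2374 on hypoxia arrays 1 to 4, against 4668, 5021, 5299 and 4992 on control arrays 1 to 4. After median centring Snrpb changed by -0.44 with an adjusted p of 0.0662.

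Of the genes for the E, F and G subcomplex, 2 rose and 1 was not called, where 14.8% of all genes rose. Snrpe, encoding SmE, had signals of 14859, 8341, 7065 and 7138 on hypoxia arrays 1 to 4, against 5644, 5399.9, 6041 and 5403 on control arrays 1 to 4, so that hypoxia 1 was far above the rest while all 4 hypoxia values exceeded control. It rose 1.58-fold, a change of 0.66 ± 0.21 (SE, limma adjusted p = 0.0275). Without hypoxia 1 the change was 0.41 (adjusted p = 0.02), and the call was lost without control 1, 2 or 4, at 0.66, 0.64 and 0.64. Snrpg, encoding SmG, had signals of 9678, 6076, 4273 and 4885 on hypoxia arrays 1 to 4, against 3080.0, 3389, 3731 and 3572 on control arrays 1 to 4, with hypoxia 1 again highest and no overlap. Its change was 0.78 ± 0.22 (SE, limma adjusted p = 0.0136), and 0.55 without hypoxia 1 (adjusted p = 0.013). Snrpf, encoding SmF, was not called, at -0.13 (95% interval -0.49 to 0.22). The D1 and D2 genes lie on probe sets that the annotation also pairs with a predicted gene, so they are not members, and these read 0.10 for Snrpd1 and -0.16 for Snrpd2, neither called.

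SmN, the product of Snrpn, is a close relative of SmB that takes its place in brain and heart. Snrpn is expressed from the paternal allele together with Snurf, which is encoded upstream on the same transcript, so most of its probe sets carry both symbols. The probe set paired with Snrpn alone was dim, at 26.3 ± 11 in hypoxia muscle and 79.7 ± 63 in control muscle (SD, n = 4 each). Beside it stand 6 probe sets shared with Snurf, of which 4 were above the filter, and all 4 fell. Probe set 1415896_x_at had signals of 280.2, 163.5, 147 and 448 on hypoxia arrays 1 to 4, against 1789, 2619, 2759.8 and 2252 on control arrays 1 to 4, a fall of 9.29-fold and a change of -3.22 ± 0.30 (SE, limma adjusted p = 8.82e-06). No hypoxia value came near a control value on it. Probe set 1421063_s_at had signals of 158, 166, 304 and 300.0 on hypoxia arrays 1 to 4, against 1101, 1777, 1337 and 1377 on control arrays 1 to 4, and changed by -2.55 ± 0.24 (SE, limma adjusted p = 1.17e-05). Probe set 1435716_x_at had signals of 268, 292, 329.9 and 351 on hypoxia arrays 1 to 4, against 2010.4, 1529, 1774 and 1623 on control arrays 1 to 4, with the hypoxia values close together and a change of -2.42 ± 0.16 (SE, limma adjusted p = 8.30e-07). The remaining 1415895_at was lower by less, with signals of 1406, 2143, 1556 and 1825 on hypoxia arrays 1 to 4, against 2712, 2719, 3065 and 2949 on control arrays 1 to 4 and a change of -0.73 ± 0.16 (SE, limma adjusted p = 0.00365). All 4 kept their call with any 1 array left out and under the 10 other settings that apply to them, and the smallest of them was -0.61 for 1415895_at after median centring.

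The 4 probe sets thus differ in the size of the fall, 1.66-fold to 9.29-fold, and the files do not say which stretch of the transcript each reads. Suffixes _s_at and _x_at mark probe sets that can bind related transcripts, and the amount of Snrpb RNA read by these, or of Snrpn RNA read by the Snrpb probe sets, was not tested. Nerve and Schwann cell markers, from cells in which Snrpn is also expressed, had a summed signal of 5807 to 8311 on hypoxia arrays and 6990.2 to 9614 on control arrays, with 1 of 6 tested genes higher (Uchl1, 2.01) and 1 lower (Pmp22, -0.51), while Nefl, Tubb3 and Snap25 were below the filter. Their part in the fall of Snrpn was not tested.

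**Figure D2:**
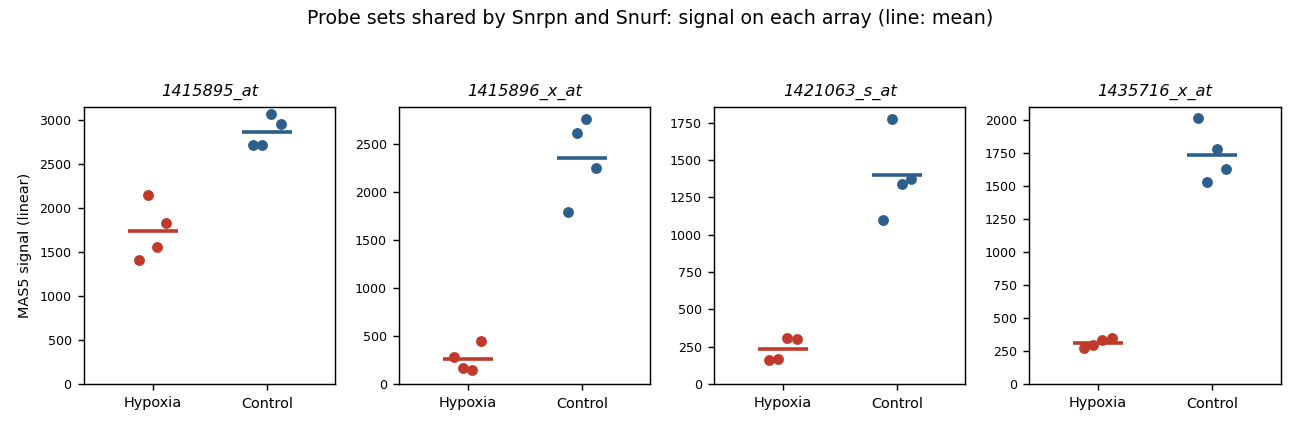
MAS5 signal (linear axis from 0) on each array for the 4 probe sets shared by Snrpn and Snurf that were above the filter, hypoxia at the left and control at the right, with a line at the mean of each group. On 3 of them every hypoxia array lies under 450 and every control array above 1100, and on 1415895_at the groups are closer but do not overlap.

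Both Snrp genes for proteins of the U2 snRNP rose, where 14.8% of all genes did. Snrpa1, which encodes the A' protein of U2, had signals of 2752, 2451, 1527 and 1858 on hypoxia arrays 1 to 4, against 1165.5, 1093, 1182 and 1301 on control arrays 1 to 4, with hypoxia 1 and 2 highest and no overlap. The change was 0.81 ± 0.18 (SE, limma adjusted p = 0.00427), and the 2 other Snrpa1 probe sets read 0.60 (called) and 0.44 (not called). Snrpb2, encoding the B'' protein of U2 and partner of A', had signals of 3754, 4628, 2786 and 4203.5 on hypoxia arrays 1 to 4, against 1989.7, 2117, 2713 and 2620.1 on control arrays 1 to 4. Hypoxia 3 lay just above the highest control value, and the change was 0.69 ± 0.18 (SE, limma adjusted p = 0.00957), with 1.53 on a further probe set. For the U1 snRNP, Snrpc, which encodes its C protein, was not called, at 0.12 (95% interval -0.20 to 0.44). The A protein of U1 is encoded by Snrpa, whose probe set also carries predicted genes, and it read -0.26 without passing.

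Among the members in the SF3 complexes, all Sf3b genes but Sf3b5 rose, Sf3b6 only at the threshold, and no Sf3a gene was called. Of 6 Sf3b genes 5 rose (83.3%) and none fell (median 0.70), where 14.8% and 18.8% of all genes did. Of 3 Sf3a genes none was called (median 0.13), where 33.5% of all genes were called in either direction. Whether the complexes differ was not tested. Sf3b1, the large SF3b subunit that clamps the branch site, had signals of 8598, 8260.5, 6377 and 7484 on hypoxia arrays 1 to 4, against 3674, 2929.8, 2707 and 2769.8 on control arrays 1 to 4. All hypoxia values were far above control and the rise was 2.54-fold, a change of 1.34 ± 0.15 (SE, limma adjusted p = 2.60e-05). Of its 3 other tested probe sets 2 rose, by 1.54 and 0.61, and 1 was not called at -0.07, and the average of the 4 was 0.85. Sf3b2, which binds the intron upstream of the branch site with Sf3b4, had signals of 4070.4, 3887, 2934 and 3016.5 on hypoxia arrays 1 to 4, against 1420.3, 1583, 2244 and 2582 on control arrays 1 to 4. Its change was 0.85 ± 0.20 (SE, limma adjusted p = 0.0057), with 4 of 7 tested probe sets higher and none lower.

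Sf3b4 had signals of 1579, 1243, 1094 and 1489 on hypoxia arrays 1 to 4, against 769, 803.5, 730.1 and 979.6 on control arrays 1 to 4, with no overlap and a change of 0.70 ± 0.16 (SE, limma adjusted p = 0.00533). Sf3b3, a scaffold of the complex, had signals of 986, 1426, 965 and 1229.9 on hypoxia arrays 1 to 4, against 737, 794, 649 and 631 on control arrays 1 to 4, and changed by 0.69 ± 0.17 (SE, limma adjusted p = 0.00663). Both probe sets of each of these genes were called higher. Sf3b6, also called p14, the subunit that touches the branch adenosine, had signals of 6554, 4375, 3444 and 3661 on hypoxia arrays 1 to 4, against 3060.4, 2865, 3069.5 and 3189.5 on control arrays 1 to 4, so that hypoxia 1 exceeded all others. Its change of 0.52 ± 0.19 (SE, limma adjusted p = 0.0493) lay at the threshold. Without hypoxia 1 it was 0.32, and the call was lost then and without hypoxia 2 (0.51) or control 1, 2, 3 or 4 (0.52, 0.49, 0.52 and 0.54), as well as after quantile normalization (0.39). Sf3b5, the smallest of the 6 proteins, had 3753 ± 662 in hypoxia muscle and 3599 ± 275 in control muscle (SD, n = 4 each) and was not called at 0.05 (95% interval -0.28 to 0.38), its sign turning after quantile normalization. In SF3a, Sf3a3 had signals of 416, 470.2, 553 and 643 on hypoxia arrays 1 to 4, against 485, 439.8, 428 and 524 on control arrays 1 to 4, with overlapping groups and a change of 0.13 (95% interval -0.24 to 0.51). Sf3a2 read 0.08 (95% interval -0.22 to 0.38) and Sf3a1, a dim gene with mean signals of 251 in hypoxia and 205 in control, 0.26 (95% interval -0.50 to 1.02).

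**Figure D3:**
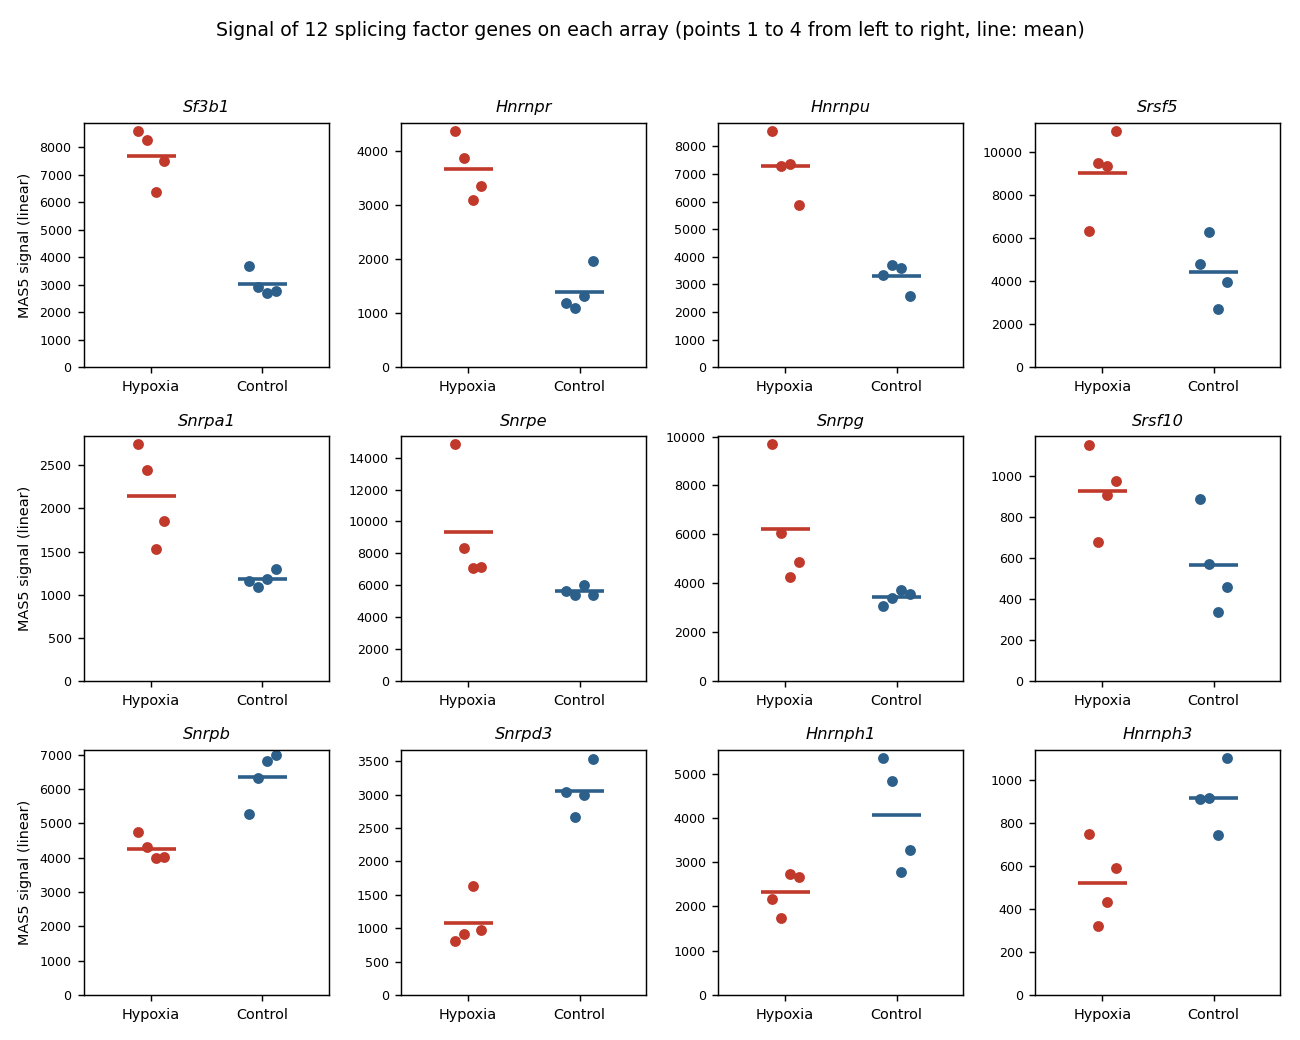
MAS5 signal (linear axis from 0) of 12 member genes on each array, hypoxia at the left and control at the right, points 1 to 4 from left to right within a group and a line at the mean. Hypoxia 1 is the highest array of Sf3b1, Hnrnpr, Hnrnpu, Snrpa1, Snrpe, Snrpg and Srsf10. The groups of Sf3b1, Hnrnpr and Snrpd3 are widely apart, and those of Srsf10 and Hnrnph3 overlap.

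On their brightest probe sets, 5 of 9 tested Srsf genes rose (55.6%) and none fell, where 14.8% and 18.8% of all genes did, with a median of 0.48 and a range of -0.29 to 1.06. Over all 31 tested Srsf probe sets, 5 were higher and 3 lower (16.1% and 9.7%), close to the 12.5% and 16.4% of all probe sets on the array. Srsf5, an SR protein that responds to insulin signalling, had signals of 6338, 9521, 9388 and 10972.5 on hypoxia arrays 1 to 4, against 4809, 6294, 2737 and 3958 on control arrays 1 to 4. Hypoxia 1 lay only just above control 2, the other hypoxia values were far above control, and the change was 1.06 ± 0.24 (SE, limma adjusted p = 0.00419), a rise of 2.08-fold on the only Srsf5 probe set. Srsf11 had signals of 4503, 3906, 2576 and 5540.5 on hypoxia arrays 1 to 4, against 2655, 2556, 2391 and 2054 on control arrays 1 to 4. Hypoxia 3 fell within the control range, the change was 0.72 ± 0.21 (SE, limma adjusted p = 0.0161), and 3 further Srsf11 probe sets were not called. Without control 4 the Srsf11 call was lost, at 0.65.

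Srsf1, the founding SR protein, had signals of 3310.3, 3275, 3674 and 3347 on hypoxia arrays 1 to 4, against 2899.7, 2281, 2107 and 2497 on control arrays 1 to 4, tight in hypoxia and above every control value, on the only 1 of its 6 tested probe sets that was called. It changed by 0.48 ± 0.14 (SE, limma adjusted p = 0.0174), and the call was lost without control 2 (0.45) or control 3 (0.41). Srsf2, a nuclear speckle protein, had signals of 4221.5, 6184, 5497 and 5493 on hypoxia arrays 1 to 4, against 3997, 2374, 3869 and 4049 on control arrays 1 to 4. Control 2 was low and hypoxia 1 was close to control, with a change of 0.60 ± 0.19 (SE, limma adjusted p = 0.0277) that was not called without hypoxia 2 (0.53), hypoxia 3 (0.58), hypoxia 4 (0.58) or control 2 (0.41), nor after quantile normalization (0.49). It was called on 1 of 4 Srsf2 probe sets, and read 0.18 on the brightest without an _s_at or _x_at suffix, not called. Srsf10, which represses splicing when dephosphorylated, had signals of 1150.2, 679, 906 and 973 on hypoxia arrays 1 to 4, against 886, 569, 338.5 and 456 on control arrays 1 to 4, and control 1 reached into the hypoxia range. Its change of 0.77 ± 0.26 (SE, limma adjusted p = 0.0371) was not called without hypoxia 1 (0.66), hypoxia 3 (0.77), hypoxia 4 (0.73), control 2 (0.80), control 3 (0.56) or control 4 (0.70).

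The 4 Srsf genes that were not called were Srsf6, Srsf3, Srsf9 and Srsf4. Srsf6 had signals of 2649, 3113.5, 2222 and 2938 on hypoxia arrays 1 to 4, against 2144, 2056, 1813 and 2485 on control arrays 1 to 4, a partial overlap with a change of 0.36 (95% interval 0.02 to 0.69). Without hypoxia 3 it was called higher at 0.45. Srsf4 had signals of 1282, 779, 791 and 1006 on hypoxia arrays 1 to 4, against 1158, 1041, 1294 and 1139 on control arrays 1 to 4, with hypoxia 2, 3 and 4 below control and hypoxia 1 inside its range, and read -0.29 (95% interval -0.67 to 0.10). Without hypoxia 1 it was called lower at -0.43. Srsf3 and Srsf9 read 0.21 (95% interval -0.20 to 0.63) and -0.15 (95% interval -0.51 to 0.21). The number of Srsf genes called higher was 3 without hypoxia 4, control 3 or control 4 and 2 without control 2. It was 1, with a median of 0.16, when all probe sets of a gene were averaged.

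Of the 19 Hnrnp genes, all tested, 8 rose (42.1%) and 2 fell, where 14.8% and 18.8% of all genes did. The median change of the Hnrnp genes was 0.47, with a range of -0.90 to 1.41. Hnrnpr, an RNA-binding protein of nascent transcripts, had signals of 4362, 3877, 3096 and 3356 on hypoxia arrays 1 to 4, against 1195, 1098, 1327 and 1960.2 on control arrays 1 to 4. The lowest hypoxia value was well above the highest control value and the rise was 2.66-fold, a change of 1.41 ± 0.19 (SE, limma adjusted p = 1.11e-04). A further Hnrnpr probe set rose by 1.06 and 2 were not called, at -0.25 and -0.40, and the mean of the 4 was 0.45 and not called. Hnrnpu, the scaffold attachment factor that links RNA to chromatin, had signals of 8557, 7288, 7364 and 5876 on hypoxia arrays 1 to 4, against 3339.9, 3719, 3610.5 and 2571 on control arrays 1 to 4. Its change was 1.13 ± 0.16 (SE, limma adjusted p = 1.72e-04), and all 5 of its probe sets were called higher. Hnrnpul1, its relative, had signals of 4216, 4862, 4433 and 4489 on hypoxia arrays 1 to 4, against 2109, 2175, 2041 and 2882.5 on control arrays 1 to 4, close together in hypoxia, and rose by 0.97 ± 0.15 (SE, limma adjusted p = 2.31e-04) on the only probe set it has.

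Hnrnpa1, a repressor of exon inclusion, had signals of 2865, 3631, 4692 and 3666 on hypoxia arrays 1 to 4, against 1835, 2197, 2228 and 1517 on control arrays 1 to 4, with hypoxia 1 the lowest of its group and no overlap. Its change was 0.92 ± 0.18 (SE, limma adjusted p = 0.0016), and 1.46 on a further probe set. On 3 more probe sets that it shares with predicted genes or pseudogenes the changes were 1.00, 1.21 and 1.03, all called higher, so the direction was alike while signals of close copies cannot be separated. Hnrnpll, which controls splicing of CD45 in lymphocytes, had signals of 4167, 2957, 2127 and 2652 on hypoxia arrays 1 to 4, against 1561, 1624.5, 1545 and 1692 on control arrays 1 to 4. Hypoxia 1 was the highest, the control values were tight, and both Hnrnpll probe sets rose, the brighter by 0.84 ± 0.19 (SE, limma adjusted p = 0.0036). Hnrnpd, an AU-rich element binding protein that also acts in mRNA decay, had signals of 2794, 2146, 1774 and 2053 on hypoxia arrays 1 to 4, against 1211.5, 1155, 1234 and 1612 on control arrays 1 to 4, with no overlap and a change of 0.74 ± 0.17 (SE, limma adjusted p = 0.00514). Hnrnpab changed by 0.71 with no overlap and 3 of 5 tested probe sets higher, and by 0.38 on their average. Hnrnpk, which binds C-rich RNA, changed by 0.47, with all 4 probe sets higher, and it was not called without hypoxia 2 (0.47), control 1 (0.41) or control 3 (0.47).

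The hnRNPs of the H and F group bind runs of G. On their brightest probe sets, 2 of these genes fell, none rose and 2 were not called, where 18.8% of all genes fell and 14.8% rose. Hnrnph3 had signals of 746, 320.3, 431 and 590.4 on hypoxia arrays 1 to 4, against 909, 912, 741 and 1098 on control arrays 1 to 4, where hypoxia 1 just exceeded control 3, and changed by -0.85 ± 0.24 (SE, limma adjusted p = 0.0142). Hnrnph1 had signals of 2175, 1737, 2724 and 2658 on hypoxia arrays 1 to 4, against 5356, 4828, 2785 and 3271 on control arrays 1 to 4, with control 1 and 2 far above the rest and the groups barely apart. It changed by -0.77 ± 0.22 (SE, limma adjusted p = 0.016), and the call was lost without hypoxia 2 (-0.64), control 1 (-0.62) or control 2 (-0.67). Its other tested probe set read -0.04 and was not called, and the average of both was -0.41 (adjusted p = 0.0814). Without any 1 of these 3 arrays Hnrnph3 was the only Hnrnp gene called lower. Hnrnph2 was not called, at 0.27 (95% interval -0.05 to 0.59). For Hnrnpf the brightest probe set read 0.60 (95% interval 0.12 to 1.08) with an adjusted p of 0.052, being called higher without hypoxia 4 (0.78) or control 4 (0.78), and 2 dimmer probe sets were called higher, at 1.02 and 1.02. Those 2 probe sets had no overlap between groups. The average of the 4 Hnrnpf probe sets was 0.79 and called higher (limma adjusted p = 9.86e-04).

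Hnrnpl, which binds CA repeats, had signals of 73.3, 196, 291.5 and 192 on hypoxia arrays 1 to 4, against 437, 318, 283 and 307 on control arrays 1 to 4. All hypoxia values but hypoxia 3 lay below control, and the change of -0.90 (95% interval -1.61 to -0.19) missed the threshold at an adjusted p of 0.0503. Hypoxia 1 had by far the lowest value, and without it the change was -0.54 (adjusted p = 0.0876), while without hypoxia 3 it was -1.14 and called lower. The remaining Hnrnp genes that were not called were Hnrnpul2 (-0.38), Hnrnpa0 (0.09), Hnrnpm (0.15), Hnrnpa2b1 (0.21), Hnrnpc (0.35) and Hnrnpdl (0.49), with 95% intervals that together ran from -0.76 to 0.91. Without hypoxia 3, Hnrnpc (0.49) and Hnrnpdl (0.67) were called higher. Hnrnpa3, a gene of this family whose 4 probe sets the annotation also pairs with a predicted gene, is not a member. Of these 4, 2 rose, by 1.00 and 0.79, and 2 were not called, at 0.26 and -0.59.

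Probe sets of the same gene did not always move together. With probe sets as units, 46 of the 124 tested member probe sets were higher and 12 lower (37.1% and 9.7%), where 12.5% and 16.4% of all 27023 probe sets were. Among the 33 members with 2 or more tested probe sets, 2 had both a probe set called higher and another called lower (6.06%), where 151 of 5727 genes did so over the array (2.64%). Of members with 3 or more, 1 of 19 did (5.26%), against 4.74% of all such genes. The first of the 2 is Srsf10, whose brightest probe set rose as above, while another had signals of 344, 302, 483 and 480.1 on hypoxia arrays 1 to 4, against 985, 655, 839 and 926.5 on control arrays 1 to 4 and changed by -1.06 ± 0.20 (SE, limma adjusted p = 0.00192) with no overlap. The second is Hnrnpd, for which a dimmer probe set had signals of 277, 189, 255 and 394 on hypoxia arrays 1 to 4, against 562, 666, 341 and 619 on control arrays 1 to 4, with hypoxia 4 above control 3, and changed by -0.94 ± 0.26 (SE, limma adjusted p = 0.0159). Averaging its probe sets gave Hnrnpd a change of -0.10, not called.

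In 5 members the brightest probe set was not called in the fit over probe sets while dimmer ones were, higher for Hnrnpf as above and for Sf3b6 (0.76 on 1417055_at), and lower for the other 3. Sf3b6 on its brightest probe set had an adjusted p of 0.0574 in that fit. For Srsf3, an SR protein known to control its own splicing, the brightest probe set had 4719 ± 1083 in hypoxia muscle and 4052 ± 844 in control muscle (SD, n = 4 each), and 2 of its 5 others fell, with changes of -1.01 and -0.75. Of these, 1416151_at had signals of 255, 139, 276 and 208 on hypoxia arrays 1 to 4, against 541, 522, 313 and 447 on control arrays 1 to 4, without overlap. Hnrnpa2b1 had 2 of 4 probe sets lower, at -0.54 and -0.66, both without overlap, beside 0.21 on the brightest. Hnrnpdl had 1 of 7 lower, at -0.77. Without hypoxia 2 the number of member probe sets called lower was 6, and after median centring 7. All Sf3b probe sets that passed were higher (12 of 21 tested), and Hnrnpu (5 of 5), Hnrnpk (4 of 4) and Snrpb (2 of 2, lower) were each called the same way on every tested probe set. Probe sets of a gene share its transcripts and are not replicates, and the files do not give the exons they read.

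**Figure D4:**
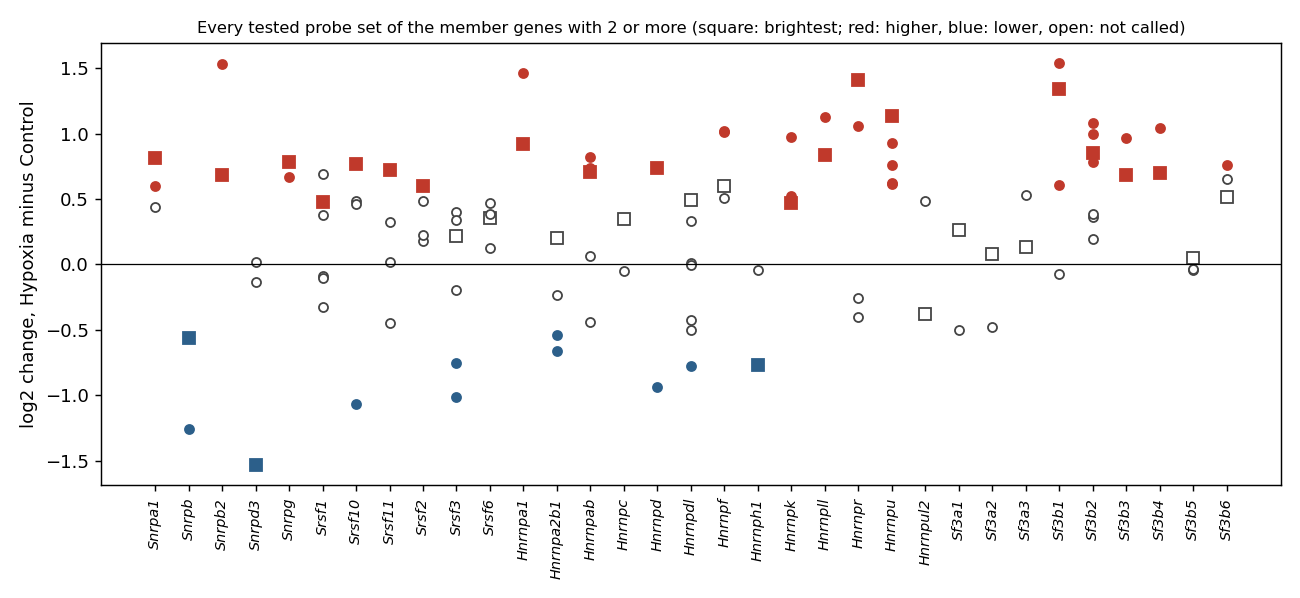
Log2 change of hypoxia minus control for every tested probe set of the 33 members with 2 or more, in family order. Squares are the brightest probe set of a gene, circles the others, filled red called higher, filled blue called lower and open not called, and a mix of red and blue is seen for Srsf10 and Hnrnpd.

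Other genes of the splicing pathway also held more rises than falls. Over 7 lists with 157 tested genes outside the member families, 47 rose and 13 fell (29.9% and 8.3%), where 14.8% and 18.8% of all genes did, with a median change of 0.19 against -0.04 over all genes. The counts of the single lists are to be read against the same shares. Among proteins of particular snRNPs and of 3' splice site recognition, 10 rose and 4 fell of 31 tested. Snrnp25, of the minor U11/U12 snRNP, averaged 95.1 ± 48 in hypoxia muscle and 435 ± 66.5 in control muscle, a change of -2.11. Snrnp48, of the same minor snRNP, averaged 2374 ± 879 in hypoxia muscle and 726 ± 111 in control muscle, a change of 1.62. Rbm17, a U2-associated protein, changed by 1.28. Of genes for assembling the Sm ring, 4 rose and 0 fell of 14 tested. They include Ddx20, also called Gemin3, a helicase of the SMN complex (0.99), Strap, another SMN-associated protein (1.02), and Phax, the export adaptor of small nuclear RNA (0.79).

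In the list of Sm-like proteins, 3 rose and 1 fell of 10 tested. Lsm10, of the U7 snRNP that processes histone mRNA, changed by 1.46, and Lsm6 of the U6 ring by 0.57. Lsm11, of the same particle as Lsm10, changed by -0.67, a call lost in 10 of 20 alternatives, among them the average of its probe sets (-0.18, adjusted p = 0.698). On the Lsm6 probe set without an _s_at or _x_at suffix the change was -0.81, so its direction is uncertain. In the list of the Prp19 complex and catalytic step factors, 9 rose and 1 fell of 31 tested, led by Ctnnbl1 (1.86), Syf2 (1.77) and Cwc15 (1.10). Ctnnbl1 averaged 1805 ± 198 in hypoxia muscle and 486 ± 43.1 in control muscle. In the list of SR kinases and SR-related proteins, 6 rose and 2 fell of 25 tested. Srrm1, a splicing coactivator, changed by 1.52 and Scaf11 by 1.01, and by 0.90 and 0.46 when their probe sets were averaged. Srpk2, a kinase that phosphorylates SR proteins, averaged 517 ± 129.8 in hypoxia muscle and 1058 ± 101 in control muscle, a change of -1.04, which was -0.10 and not called when its probe sets were averaged.

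Among alternative splicing regulators outside the families, 12 rose and 4 fell of 37 tested. Rbfox1, a regulator of muscle exons that binds UGCAUG, averaged 4409.6 ± 1701 in hypoxia muscle and 10794 ± 1706 in control muscle, a change of -1.35. Fubp1, which binds single-stranded elements, changed by 2.03 and Matr3, a nuclear matrix RNA-binding protein, by 0.92, and averaging their probe sets gave 1.23 for Fubp1 and 0.47 for Matr3. Of genes of the exon junction complex and nonsense-mediated decay, 3 rose and 1 fell of 9 tested. Smg1, the kinase of the decay factor UPF1, changed by 1.20, Rbm8a, a core of the junction complex, by 0.81, and Casc3 by 0.73. Rbm8a was at 0.12 and not called when its probe sets were averaged.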

How the data were processed

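Gene expression was measured in 8 quadriceps RNA samples, 4 hypoxia and 4 control, on 1 Affymetrix mouse array each. The deposited values are signal intensities per probe set on a linear scale, made by the authors with MAS5, per the submitters' processing notes, which subtracts background and scales each array. The MAS5 version is not given in the sources used here. That scaling was kept, and the trimmed mean (2% off each end) came to 500.0 for every array. After scaling, the control probe set CreX read 41883.5 on hypoxia 1 and 27101 to 30194 on the other hypoxia arrays. Control arrays read 39332 to 44285 on it. BioB read 1262 on hypoxia 1, 553 to 682 on the other hypoxia arrays and 814 to 1131 on control arrays. The part of this gap in the changes reported was not tested. No arrays were identical, and depth does not apply, so the number of arrays limits precision.

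Groups came from sample titles. After removal of 64 control probe sets, the dimmest 40% by mean log2(signal + 16) were dropped, leaving 27023, and the brightest probe set stood for each of 13258 genes. Adding 16 understates the change of dim genes. Changes were tested with limma 3.58.1 in R 4.3.3 (lmFit, eBayes with an intensity trend, two-sided, Benjamini-Hochberg over all genes, threshold 0.05), checked on simulated data. Probe sets were named by the platform annotation, and all 47 member symbols matched RefSeq gene IDs of GRCm38.p6.

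In each family the 6 members with the smallest p and those with the largest rise and fall were given on every array (26 genes), and of each further list the 3 with the smallest p. Further members and probe sets were named after their values were seen. The members and lists were chosen with earlier results of these data known. The fit was repeated with each array left out, with a block for the replicate number, after median centring or quantile normalization, with 1 or 64 in place of 16, with a 60% filter or none, with probe sets averaged or those with _x_at and _s_at avoided, and with other variance models or array weights.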

Additional observations from a re-analysis of the deposited data

Results flagged for a closer look

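Srsf2 in control 2, with a signal of 2374, lay far below the other 3 control arrays (3869 to 4049), more than the spread of 4 samples allows by Dixon's test at the 95% level. Without control 2 the change of Srsf2 was 0.41 and was not called. It was the only such value among 60 groups of 4 checked, for the 26 members given on every array and the 4 probe sets of Snrpn and Snurf, where chance alone flags about 1 in 20.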

How the results depend on the processing

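Over 20 alternatives the number of members called higher ran from 17 to 25 and lower from 3 to 5, and 15 of the 26 called members passed in all 20, while 11 lost the call in at least 1, of which Hnrnpd also changed sign. After median centring the medians of all members, Srsf and Hnrnp were 0.61, 0.61 and 0.60, 1 Snrp gene and 7 member probe sets were lower, and the median of all genes was 0.087, against 0.036 after quantile normalization, when Sf3b5 was at -0.046. As deposited, 44.0% of called genes were higher, against 50% after quantile normalization and 55.5% after centring, and of called members 84.6%, 83.3% and 89.3%. Without a filter the Snrp median was 0.12. Averaging a gene's probe sets gave medians of 0.17 for members, 0.16 for Srsf and 0.15 for Hnrnp, 1 Srsf gene higher and 1 Hnrnp gene lower, and turned the sign of Hnrnpd (-0.10), Hnrnpa2b1 (-0.31), Hnrnpdl (-0.12), Hnrnpul2 (0.056), Sf3a1 (-0.12), Sf3a2 (-0.20), Sf3b5 (-0.0097), Srsf3 (-0.17) and Lsm6 (-0.12). With probe sets without the suffixes _x_at and _s_at, Sf3a2 was -0.48, Sf3b5 -0.031 and Lsm6 -0.81, and 3 Srsf genes were higher, as also without the variance trend. The cause of these differences was not tested.

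Leaving out 1 array at a time, Srsf genes higher ranged from 2 to 5 and lower from 0 to 1, Hnrnp genes lower from 1 to 3, member probe sets lower from 6 to 12, and the members' median from 0.37 to 0.53, and Sf3b5 was -0.051 without hypoxia 4 and -0.0092 without control 1. The lowest values were those without control 2 for Srsf, without hypoxia 2, control 1 or control 2 for Hnrnp, without hypoxia 2 for probe sets and without hypoxia 1 for the median. Titles give both groups the same replicate numbers, but deviations of same-numbered arrays correlated at only -0.075 to 0.0024 across genes. These values, from 4 arrays per group, cannot settle whether same-numbered arrays were paired. With the replicate block 19 members were higher and 4 lower, and Hnrnpk, Sf3b6 and Srsf2 were not called. Signals near the filter and the 4 arrays per group limit what can be told.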
